A study of Homo sapiens with 12 samples.

Results

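The glycolysis enzymes were taken as the 10 genes HK2, GPI, PFKP, ALDOA, TPI1, GAPDH, PGK1, ENO1, PKM and LDHA, selected by symbol from the gene count table, which held 36482 symbols or identifiers once rows of the same symbol were added together. All 10 passed the filter on low counts in both cell lines. Glycolysis splits glucose into pyruvate in the cytosol and yields ATP and NADH on the way, and lactate dehydrogenase then turns pyruvate into lactate. Cancer cells often run the pathway at a high rate even when oxygen is present. Many of its enzymes have abundant messages, and GAPDH serves widely as a reference gene. In this study GAPDH was the reference in qRT-PCR of p53 target genes and the marker of the soluble fraction in immunoblots.

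RNA was sequenced from 12 libraries. The ovarian cancer line TOV-112D, which carries p53-R175H, was exposed for 3 h to the vehicle DMSO, to the pyrimidine trione UCI-1001 or to its analog UCI-1014, in which a methoxy group takes the place of the nitro group, with 2 libraries per group. All 6 of these libraries therefore share the mutant p53, and the 2 DMSO libraries are the control of UCI-1001 and of UCI-1014 alike. The labels state no dose. The paper gives one for UCI-1001, but the dose behind the UCI-1014 libraries is not given in the sources used here. The compounds were therefore compared as libraries and not at matched doses. The parental osteosarcoma line Saos-2 (p53-null) and a stable lentiviral derivative with doxycycline-inducible wild-type p53 (p53-WT) gave 3 libraries each, both labelled with 16 h of induction. Whether doxycycline was given to the p53-null cells is not stated in the sources used here, and if it was not, p53 and the drug cannot be told apart. Nothing in the labels says that libraries of a group came from separate cultures, so every p-value measures only the spread between these libraries, which may be technical. In bulk RNA, fewer cells of a kind and less RNA per cell cannot be told apart.

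Library totals ran from 17762027 to 24629558 counts. Most markers of bone cells went against the label Saos-2. Of 8 genes of bone-forming cells, chosen after their values were seen, 5 in p53-null and 7 in p53-WT stayed under 1 TPM, a length-corrected abundance, in every library, among them ALPL (0.281 TPM at most), IBSP (0.0910 TPM at most) and SP7, which was at 0 throughout. The epithelial keratins KRT8 (170.0 to 374 TPM) and KRT18 (382 to 585 TPM) were high in the same 6 libraries, while KRT19 (1.12 TPM at most), EPCAM (0.258) and CDH1 (0.102), also epithelial, were near 0. RUNX2, on the same bone list, was at 1.06 to 3.58 TPM in those 6 libraries. The bone list summed to 2.49 to 6.47 TPM there and to 29.8 to 36.3 TPM in TOV-112D, where COL1A1 alone held 22.2 to 28.0 TPM. In each TOV-112D group 4 of the 8 bone genes stayed under 1 TPM in every library. Of the same 5 epithelial genes in TOV-112D, KRT18 was at 0 in every library, KRT19 reached 0.0782 TPM and KRT8 0.997 TPM, and EPCAM (2.12 to 3.31 TPM) and CDH1 (0.331 to 2.07 TPM) were low. The 6 null and wild-type libraries are therefore called libraries labelled Saos-2, and the part of the line's identity in the results was not tested. Replicate 1 stood apart in both groups of that label: set against the other two, its chi-square over degrees of freedom was 22.1 to 37.0, against 3.31 and 4.07 between replicates 2 and 3 and 2.29 to 3.81 within the TOV-112D groups.

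The last ATP-yielding enzyme of the pathway, pyruvate kinase, exists in 2 forms made from one gene. PKM (ENSG00000067225, chr15:72199029-72231819 on GRCh38, minus strand) includes either exon 9, which gives PKM1, or exon 10, which gives PKM2, the form common in proliferating cells. The exons, both coding, are shown because they are the only part in which the forms differ. Each is 167 bases long, and 105 of the bases (62.87%) are identical at the same position. Capitals mark the 62 positions that differ.

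PKM exon 9, chr15:72203022-72203188, minus strand: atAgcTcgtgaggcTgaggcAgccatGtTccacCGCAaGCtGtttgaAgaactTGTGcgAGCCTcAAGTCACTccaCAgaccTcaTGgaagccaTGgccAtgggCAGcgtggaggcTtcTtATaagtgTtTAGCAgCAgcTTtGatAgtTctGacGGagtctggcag

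PKM exon 10, chr15:72202454-72202620, minus strand: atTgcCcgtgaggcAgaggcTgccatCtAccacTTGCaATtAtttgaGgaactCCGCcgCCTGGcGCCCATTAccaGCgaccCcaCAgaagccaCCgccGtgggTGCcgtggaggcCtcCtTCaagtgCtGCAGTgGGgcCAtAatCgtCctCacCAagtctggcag

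Of the PKM transcripts that hold either exon, nearly all message was of the exon 10 form. Transcripts with neither made up the rest of PKM, so that exon 10 transcripts held 727 of 763 TPM in the first DMSO library and 1691 of 1881 TPM in the first p53-WT library. Transcripts with exon 9 made up 0.663% and 0.638% of the summed TPM of both kinds in the DMSO libraries, 0.728% and 0.598% with UCI-1001 and 0.720% and 0.949% with UCI-1014. The libraries of UCI-1001 lay on both sides of those of DMSO. Both UCI-1014 libraries lay above DMSO, but they differed from each other by more than the lower of them did from the control. In libraries labelled Saos-2 the share was 1.60%, 1.50% and 1.68% in p53-null and 1.78%, 1.65% and 1.61% in p53-WT, and the groups overlapped. These shares rest on kallisto's assignment of reads between 5 exon 9 and 3 exon 10 transcripts, and no test was made of them.

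The upstream sequences of 3 members are shown because these genes differ in the results that follow: LDHA, the largest fall with UCI-1014, HK2, the largest fall with p53-WT, and PGK1, the member called with neither compound. They come from RefSeq (GRCh38.p14) and cover up to 250 bases before a transcription start, without bases that GENCODE v44 places in an exon of the gene. Capitals mark ACGTG on either strand, the core of the element bound by the hypoxia factor HIF-1, and CACGTG holds that core on both strands.

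HK2, chr2:74833877-74834126, plus strand: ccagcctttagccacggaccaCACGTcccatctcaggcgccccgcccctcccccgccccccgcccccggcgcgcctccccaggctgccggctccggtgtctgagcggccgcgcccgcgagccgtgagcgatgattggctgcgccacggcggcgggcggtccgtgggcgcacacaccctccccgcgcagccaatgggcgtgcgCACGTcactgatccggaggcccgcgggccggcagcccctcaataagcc

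LDHA, chr11:18394313-18394559, plus strand: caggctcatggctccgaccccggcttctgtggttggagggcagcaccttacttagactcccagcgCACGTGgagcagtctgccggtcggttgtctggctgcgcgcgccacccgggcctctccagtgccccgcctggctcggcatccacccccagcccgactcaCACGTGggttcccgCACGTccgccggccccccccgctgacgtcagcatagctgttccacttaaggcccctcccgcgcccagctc

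PGK1, chrX:78103998-78104247, plus strand: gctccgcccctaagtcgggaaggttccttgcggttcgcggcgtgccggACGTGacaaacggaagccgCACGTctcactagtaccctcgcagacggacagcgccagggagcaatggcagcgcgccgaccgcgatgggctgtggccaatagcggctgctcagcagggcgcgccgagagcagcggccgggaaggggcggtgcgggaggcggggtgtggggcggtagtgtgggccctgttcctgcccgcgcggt

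Some upstream window of 8 of the 10 members held ACGTG, against 21.7% of the 27305 genes with a window. By window, 11 of the members' 18 windows held it, against 18.5% of all 35116. The LDHA window before trimming had 5 matches, with each CACGTG counted once per strand, and those shown for HK2 and PGK1 had 2 each. A second LDHA window, at an inner start (chr11:18396101-18396350, not shown), had 0. A second HK2 window, at an inner start (chr2:74834920-74835169, not shown), had 4. GAANNTTC, a pair of inverted repeats of the unit bound by heat shock factor, was found in 1 of the 18 windows, that of PGK1, and in 5.78% of all windows. GGGCGG, the GC box, was in 12 of 18 and in 42.6% of all. Both strands were searched. Such matches describe letters and are not evidence of binding.

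Levels between genes were compared in TPM, which corrects for transcript length. In DMSO libraries the order was GAPDH (3374 ± 5.39 TPM, SD, n = 2), ENO1 (1765 ± 35.7), ALDOA (900.4 ± 9.27), TPI1 (839 ± 14.7), PKM (747 ± 22.7), LDHA (514 ± 3.06), PGK1 (468 ± 1.80), PFKP (313 ± 14.6), GPI (176 ± 4.44) and HK2 (14.5 ± 0.419). No neighbours in that order overlapped. Among these members, hexokinase 2, an enzyme that commits glucose to the cell, was thus the scarcest message and the NADH-forming dehydrogenase the most abundant. HK1, a hexokinase outside this list, stood at 124 CPM with DMSO, against 52.2 CPM for HK2. CPM scales counts to library size without correcting for transcript length. The level of HK2 alone therefore does not give that of the hexokinase step. GPI is understated in TPM, since the transcripts matched to it miss up to 31.6% of its deposited count, and for the other members the gap was 2.57% at most.

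With UCI-1001 and UCI-1014 the order was the same except that PGK1 came before LDHA. The PGK1 and LDHA libraries overlapped with UCI-1001 (471 ± 3.06 against 457 ± 17.3 TPM) and did not with UCI-1014 (479 ± 26.1 against 400.0 ± 18.5 TPM).

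In p53-null libraries GAPDH was again first (8197 ± 200.4 TPM, SD, n = 3) and HK2 last (22.8 ± 4.66). PKM (1677 ± 69.8 TPM) followed ENO1 there, ahead of ALDOA (1394 ± 74.2) and TPI1 (1375 ± 61.8), whose libraries overlapped. Against DMSO-treated TOV-112D, 9 of the 10 levels were higher, by ratios of means from 1.35 for PGK1 to 2.43 for GAPDH. The exception was PFKP, the platelet form of phosphofructokinase, at 0.443 times the TOV-112D level. The share of all genes that were higher in p53-null was not computed. The lines also differ in origin, treatment and p53, so these ratios are descriptions. Together the 10 genes took 0.841% ± 0.00066 of counts in DMSO, 0.779% ± 0.0116 with UCI-1001, 0.665% ± 0.00817 with UCI-1014, 1.94% ± 0.0661 in p53-null and 1.85% ± 0.165 in p53-WT. These are shares of the unscaled totals. With the scaling used in the tests, the sums were 8120, 7629 and 7056 CPM in DMSO, UCI-1001 and UCI-1014. In p53-null and p53-WT the scaled sums were 18452 ± 1090 and 19587 ± 2359 CPM.

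**Figure D1:**
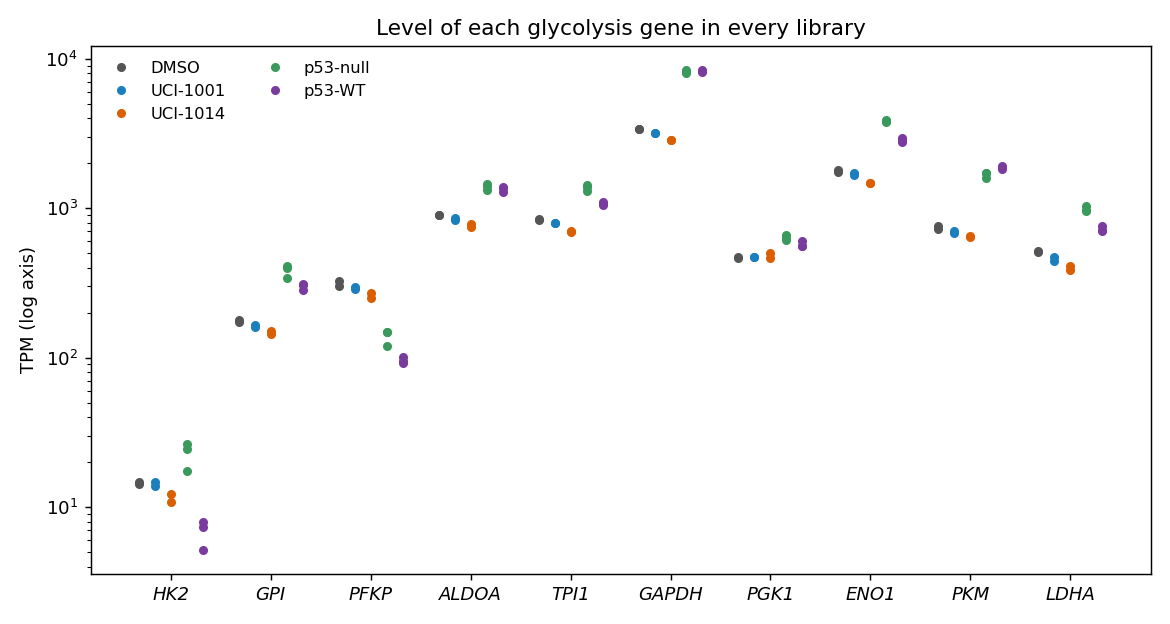
Level of the 10 glycolysis genes in TPM on a log axis, 1 point per library, coloured by group. GAPDH is highest and HK2 lowest in each of the 12 libraries, and PFKP is the gene for which both p53-null and p53-WT libraries lie below all those of TOV-112D.

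UCI-1014 lowered the message of 9 of the 10 enzymes in TOV-112D cells. The changes were shallow, since mean CPM, the count scaled to library size, fell by 11.9% for PKM, the least changed of them, and fell by 19.9% for LDHA, the most changed, and PGK1, the first ATP-yielding enzyme, did not fall. The comparison asked how the enzymes responded to 3 h of the analog. In edgeR's quasi-likelihood test with Benjamini-Hochberg adjustment over 14174 genes, 47.1% of all genes were called at an adjusted p under 0.05, 23.4% lower and 23.7% higher, against 9 and 0 of the 10 enzymes. Their median log2 fold change was -0.22, against -0.016 over all genes tested. Among the 2299 genes whose mean reached 100 CPM, a level chosen after the data were seen, 34.3% were called lower and the median was -0.029.

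At the entry of the pathway, HK2 (hexokinase 2, ENSG00000159399, chr2:74834127-74893359) stood at 52.5 and 51.9 CPM with DMSO, 49.1 and 53.1 with UCI-1001, and 44.7 and 40.3 with UCI-1014. The UCI-1001 libraries lay on both sides of the controls and the UCI-1014 libraries below them. The log2 fold change with UCI-1014 was -0.30 (SE 0.068, adjusted p = 0.00215). GPI (glucose-6-phosphate isomerase, ENSG00000105220, chr19:34359480-34402413) gave 299.8 and 306 CPM with DMSO, 265 and 273 with UCI-1001, and 242 and 257 with UCI-1014. The 3 groups did not overlap, and GPI changed by -0.28 with UCI-1014 (SE 0.040, adjusted p = 4.42e-05). PFKP (ENSG00000067057, chr10:3066333-3137718), which makes fructose 1,6-bisphosphate, went from 471 ± 12.3 to 402 ± 12.5 CPM (log2 fold change -0.23, adjusted p = 1.56e-04).

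The aldolase and the isomerase that follow moved by like amounts. ALDOA (ENSG00000149925, chr16:30064164-30070457) went from 748 ± 6.05 to 647 ± 18.5 CPM and changed by -0.21 on the log2 scale (adjusted p = 2.46e-04). TPI1 (triosephosphate isomerase, ENSG00000111669, chr12:6867119-6870948) went from 548 ± 15.9 to 466 ± 11.6 CPM and changed by -0.23 (adjusted p = 9.54e-05). In neither gene did the groups overlap.

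GAPDH (glyceraldehyde-3-phosphate dehydrogenase, ENSG00000111640, chr12:6534512-6538374) was at 2185 and 2236 CPM with DMSO, 2087 and 2052 with UCI-1001, and 1878 and 1926 with UCI-1014. The groups formed 3 separate steps. The log2 fold change of GAPDH with UCI-1014 was -0.22 (SE 0.032, 95% interval -0.29 to -0.15, adjusted p = 6.78e-05), and its mean CPM fell by 13.9%. PGK1 (phosphoglycerate kinase 1, ENSG00000102144, chrX:77910739-78129295) was at 616 and 620.2 CPM with DMSO, 618 and 600.0 with UCI-1001, and 642 and 617 with UCI-1014. All 3 groups of PGK1 overlapped, and its log2 fold change was 0.03 with UCI-1014 (95% interval -0.05 to 0.10, adjusted p = 0.590), so that a fall of the size seen in GAPDH lies outside the interval. With scaling to total counts alone, which moved the median of all genes to -0.15, PGK1 had a log2 fold change of -0.11 and was called lower, though it lay above that median.

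In the last steps, ENO1 (enolase 1, ENSG00000074800, chr1:8861000-8879190, minus strand) went from 1759 ± 13.2 to 1509 ± 17.7 CPM (log2 fold change -0.22, adjusted p = 5.44e-05). PKM was at 1010 and 992 CPM with DMSO, 943 and 919 with UCI-1001, and 879 and 884 with UCI-1014, in 3 groups without overlap. Its log2 fold change with UCI-1014 was -0.18 (SE 0.033, adjusted p = 3.59e-04). LDHA (lactate dehydrogenase A, ENSG00000134333, chr11:18394560-18408425) was at 403 and 416 CPM with DMSO, 372 and 370 with UCI-1001, and 332 and 324 with UCI-1014. LDHA likewise formed 3 steps, and its log2 value of -0.32 with UCI-1014 (SE 0.036, adjusted p = 4.18e-06) was the largest of the 10. The libraries of 9 members lay wholly below those of DMSO, as did those of 38.0% of all genes, while 35.4% lay wholly above. A fit of all 12 libraries together, in which the wider spread of the Saos-2 label enters, called GPI, PFKP and LDHA only. Of the 15790 genes in that fit, 3418 were called, 1704 of them lower.

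**Figure D2:**
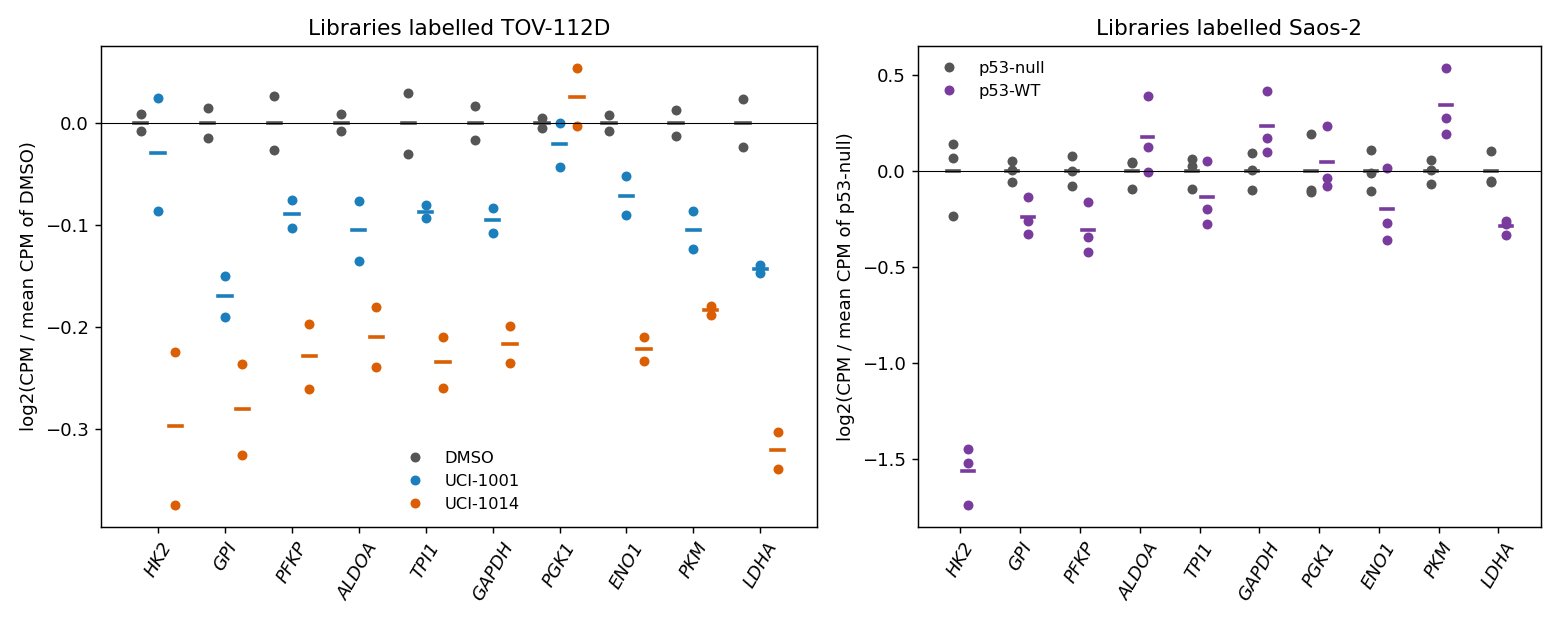
CPM of each gene in every library on a log2 scale relative to the mean of its control group, DMSO on the left and p53-null on the right, with bars at group means. On the left PGK1 is the only gene whose UCI-1014 points reach the control points, and on the right HK2 lies far below the others.

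UCI-1001 gave smaller differences in the same cells. With it, 3 of the 10 enzymes were called lower and 0 higher, while 15.8% of all genes were called, 6.36% lower and 9.39% higher. GPI fell by 0.17 (SE 0.040, adjusted p = 0.00931), LDHA by 0.14 (SE 0.036, adjusted p = 0.0137) and PKM by 0.10 (SE 0.033, adjusted p = 0.0454) on the log2 scale. The other 7 were not called, with log2 fold changes from -0.11 for ALDOA to -0.02 for PGK1. For GAPDH the value was -0.10 (95% interval -0.16 to -0.03, adjusted p = 0.0613). The libraries of 8 members lay wholly below those of DMSO, as did those of 28.0% of all genes (29.4% lay wholly above), and HK2 and PGK1 overlapped the controls. The calls were fragile, since which members were called depended on the library left out. This held even for a UCI-1014 library, which is outside this comparison but enters the filter, the scaling and the estimate of spread. The fit of all 12 libraries called 0.

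The analogs differ by the nitro group of UCI-1001 and the methoxy group of UCI-1014, and 1 pair of compounds was compared. Between their libraries 7 of the 10 enzymes were called lower with UCI-1014 and 0 higher, while 31.1% of all genes were called, 13.9% lower and 17.2% higher. HK2 differed most, by -0.27 (SE 0.068, 95% interval -0.41 to -0.12, adjusted p = 0.00746), followed by LDHA at -0.18 (SE 0.036, adjusted p = 0.00176). GAPDH differed by -0.12 (95% interval -0.19 to -0.05, adjusted p = 0.0107). GPI (-0.11, 95% interval -0.20 to -0.02), PKM (-0.08, 95% interval -0.15 to -0.01) and PGK1 (0.05, 95% interval -0.03 to 0.12) were not called. Calls numbered 4 without UCI-1001 replicate 1 or 2 and 3 without UCI-1014 replicate 1, and the fit of all 12 libraries called 0.

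**Figure D3:**
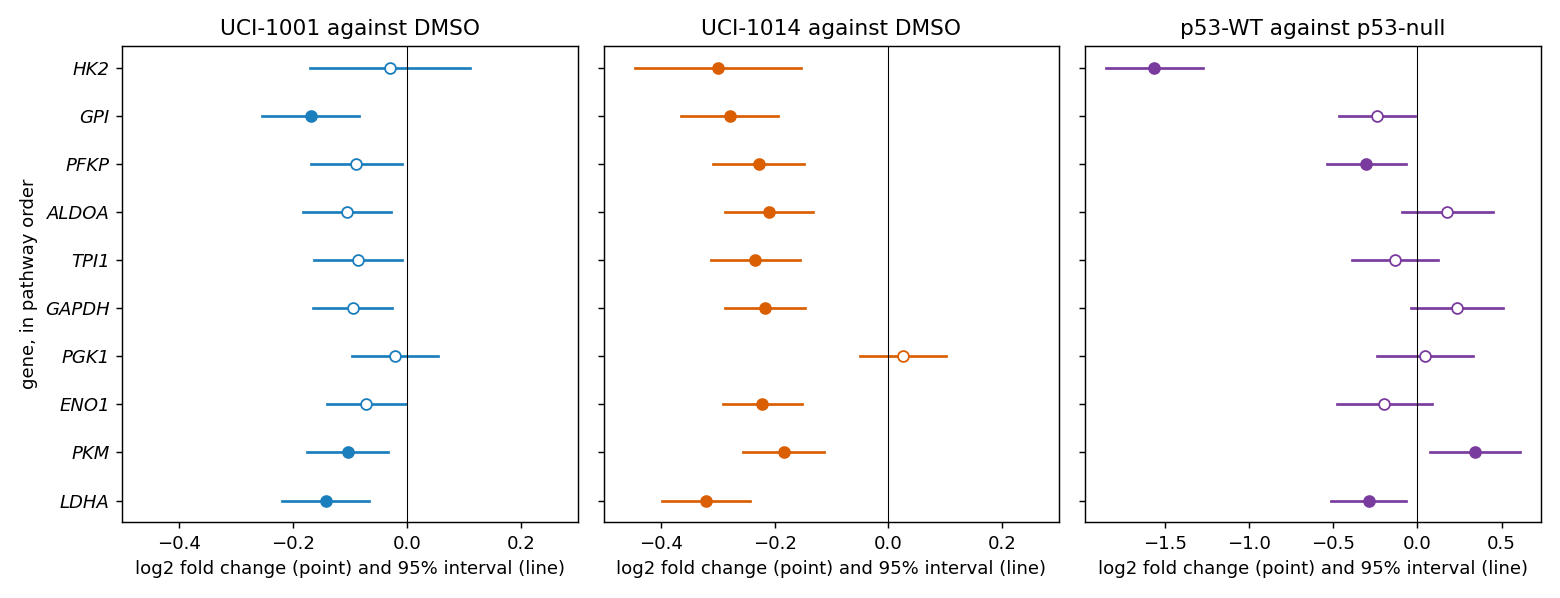
Log2 fold change (point) and 95% interval (line) of the 10 genes in pathway order for each comparison with a control, where filled points passed an adjusted p of 0.05. The third panel has a wider axis. UCI-1014 has 9 filled points below 0, and p53-WT has points on both sides with HK2 at -1.56.

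In the libraries labelled Saos-2, 4 of the 10 enzymes were called between p53-WT and p53-null, a smaller share than the 66.5% of all genes. HK2 fell in all p53-WT libraries, PFKP and LDHA were lower, PKM was higher, and 6 members were not called. Of the 14272 genes tested, 33.0% were called lower and 33.5% higher, against 3 and 1 of the 10. The median log2 fold change of the members was -0.17, against -0.013 over all genes.

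HK2 was at 76.3, 98.7 and 94.0 CPM in p53-null and at 26.9, 32.9 and 31.2 in p53-WT. The gap between the groups exceeded the range within either. Its mean CPM fell by 66.2%. The log2 value of -1.56 (SE 0.131, adjusted p = 1.31e-06) kept its call without any 1 library, with a range of -1.72 to -1.48 over every alternative run. PFKP went from 235 ± 12.8 to 190.2 ± 17.7 CPM (log2 fold change -0.31, SE 0.106, adjusted p = 0.0253).

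LDHA was at 893, 798 and 803 CPM in p53-null and 693, 687 and 660.0 in p53-WT. The groups were apart, and LDHA changed by -0.29 (SE 0.101, adjusted p = 0.0260). PKM was at 2647, 2427 and 2553 CPM in p53-null and 3688, 2905 and 3081 in p53-WT, also apart and differing by 0.34 on the log2 scale (SE 0.121, adjusted p = 0.0264). GAPDH was at 7292, 6375 and 6855 CPM in p53-null and 9141, 7320 and 7691 in p53-WT. Each p53-WT library exceeded each p53-null library by CPM, but the log2 fold change of 0.23 had a 95% interval of -0.04 to 0.51 (adjusted p = 0.117).

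GPI (-0.24), ENO1 (-0.20), TPI1 (-0.13), PGK1 (0.05) and ALDOA (0.18) were not called either. In all, 4 members lay wholly below p53-null and 2 wholly above, as did 35.7% and 35.0% of all genes. The calls other than HK2 turned on single libraries. Without p53-null replicate 2 or 3 only HK2 was called, beside 8595 of 14572 and 8681 of 14524 genes. Without p53-WT replicate 2 or 3 HK2 and PKM were called, beside 8920 of 14531 and 8786 of 14498 genes. Without p53-WT replicate 1 there were 7 calls, beside 9768 of 14489 genes. Without replicate 1 of p53-null and of p53-WT 8 members were called, 6 lower and 2 higher, with GAPDH among the higher at 0.19. Of the 14383 genes in that fit, 10680 were called, 5398 higher and 5282 lower.

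The deposited TPM, scaled to a fixed sum per library, placed several members lower in p53-WT. GAPDH was at 8197 ± 200.4 TPM in p53-null and 8254 ± 145.9 in p53-WT, ENO1 at 3842 ± 75.6 and 2867 ± 82.5, and TPI1 at 1375 ± 61.8 and 1068 ± 26.2. A limma fit of log2(TPM + 1), added after the data were seen, called 6 members, all lower: HK2, GPI, PFKP, TPI1, ENO1 and LDHA. Of the 12796 genes in that fit, 7937 were called, 2900 higher and 5037 lower. The median of all genes in that fit was -0.22, so GAPDH, at 0.01, lay above it and ENO1, at -0.42, below it.

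The rest of the pathway was followed in lists of related genes. The counts of each list below stand beside these shares of all genes. UCI-1014 had 23.7% called higher and 23.4% lower, UCI-1001 had 9.39% and 6.36%, and p53-WT had 33.5% and 33.0%. Of 11 tested isoenzymes of the same steps, UCI-1014 raised 2 and lowered 4 (median log2 fold change -0.01), UCI-1001 raised 1, and p53-WT raised 3 and lowered 5 of 13. PGAM1, the phosphoglycerate mutase between PGK1 and ENO1, went from 625 ± 1.11 to 515 ± 5.76 CPM with UCI-1014 (log2 fold change -0.28, adjusted p = 8.02e-06). LDHB, the subunit that favours pyruvate, went from 861 ± 2.61 to 740 ± 6.51 CPM. ENO2, the neuronal enolase, moved the other way, from 54.3 and 58.0 CPM with DMSO to 70.5 and 71.6 with UCI-1014 (log2 fold change 0.34, adjusted p = 1.60e-04), so that the enolases moved in opposite directions. HK1, the housekeeping hexokinase, was at 124 ± 0.595 CPM with DMSO and 114 ± 0.146 with UCI-1014. BPGM, which makes the 2,3-bisphosphoglycerate side product, rose by 0.39 (UCI-1001) and 0.32 (UCI-1014). In p53-WT libraries ADPGK fell by 0.79 and PFKL, the liver phosphofructokinase, rose by 0.64 (adjusted p = 9.42e-04), opposite to PFKP.

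Among 8 tested genes of glucose and lactate transport, UCI-1014 raised 1 and lowered 2 and UCI-1001 raised 1. The gene raised by both was SLC2A3, the high-affinity glucose transporter GLUT3, at 92.5 and 93.9 CPM with DMSO, 120.0 and 137 with UCI-1001 and 183 and 199.8 with UCI-1014. The groups did not overlap, and SLC2A3 changed by 0.47 (adjusted p = 1.25e-04) and 1.04 (adjusted p = 4.06e-09) on the log2 scale. SLC2A1, which encodes GLUT1, was at 23.0 ± 0.692 CPM with DMSO and 26.9 ± 3.56 with UCI-1014 and was not called. In the Saos-2 label 2 of 9 were higher and 3 lower in p53-WT: SLC16A1, the lactate transporter MCT1, fell by 0.96 (adjusted p = 2.99e-05), and BSG, its chaperone, rose by 0.85 (adjusted p = 5.85e-05). SLC16A3, the lactate exporter MCT4, was near 0 in TOV-112D (0.657 ± 0.164 CPM with DMSO) and was not compared between the lines. In the Saos-2 label it was at 149 ± 18.8 CPM in p53-null and 179 ± 9.78 in p53-WT.

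Of 9 tested regulators of flux, 6 were called higher in p53-WT and 2 lower, where 33.5% of all genes were called higher and 33.0% lower. TIGAR, a known p53 target whose product lowers fructose 2,6-bisphosphate, was at 42.2 ± 5.55 and 358 ± 23.9 CPM, which is 3.08 on the log2 scale (SE 0.127, adjusted p = 5.24e-09). PFKFB4 (1.76) and PFKFB2 (0.81), bifunctional enzymes that set the same metabolite, were also higher. With UCI-1014, 3 of 10 were higher and 0 lower, among them TIGAR (0.37, adjusted p = 0.00499) and PFKFB3 (0.34, adjusted p = 1.61e-05). TIGAR was at 27.4 and 27.8 CPM with DMSO and at 33.4 and 38.1 with UCI-1014, with no overlap.

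The pentose phosphate pathway, which branches from glucose 6-phosphate to make NADPH and ribose, had 6 of 7 genes called lower and 0 higher under UCI-1014 (median -0.20), where 23.4% of all genes were called lower. PGD (-0.25), RPIA (-0.23) and PGLS (-0.21) changed most among those of at least 10 CPM. UCI-1001 had 0 of 7 called in either direction. In p53-WT libraries 4 of 7 were higher and 1 lower, led by TKT, transketolase, which went from 298 ± 7.69 to 844 ± 104.8 CPM (log2 fold change 1.50, adjusted p = 6.66e-07). Of the genes around pyruvate, PCK2, the mitochondrial phosphoenolpyruvate carboxykinase, rose by 0.61 (UCI-1001) and 1.45 (UCI-1014) and fell by 0.92 in p53-WT. That list had 1 higher and 0 lower of 9 with UCI-1001, 2 and 1 of 9 with UCI-1014, and 1 and 4 of 10 with p53-WT, where DLAT, a subunit of pyruvate dehydrogenase, fell by 1.11.

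HIF-1 is known to drive both the glycolysis genes and many others, so its targets outside the pathway were set beside the enzymes. With UCI-1014, 8 of 12 were higher and 0 lower, with a median of 0.51, while 9 of the 10 enzymes were lower. Of all genes 23.7% were called higher and 23.4% lower. BNIP3 (-0.18), EGLN1 (-0.04), BNIP3L (0.01) and P4HA1 (0.12) were not called. The part of HIF-1 in any of these changes was not tested. VEGFA, the vascular growth factor, was at 44.6 and 47.7 CPM with DMSO, 54.0 and 62.6 with UCI-1001 and 102 and 116 with UCI-1014. The groups of VEGFA were apart, and its log2 fold changes were 0.34 (adjusted p = 0.0101) and 1.24 (adjusted p = 7.53e-09). NDRG1 (0.43 and 0.88) and P4HA2 (0.33 and 0.67) rose with both compounds as well, and UCI-1001 had 3 of 12 higher and 0 lower. In p53-WT 3 of 12 were higher and 3 lower, beside 33.5% and 33.0% of all genes, with P4HA2 at 3.08.

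**Figure D4:**
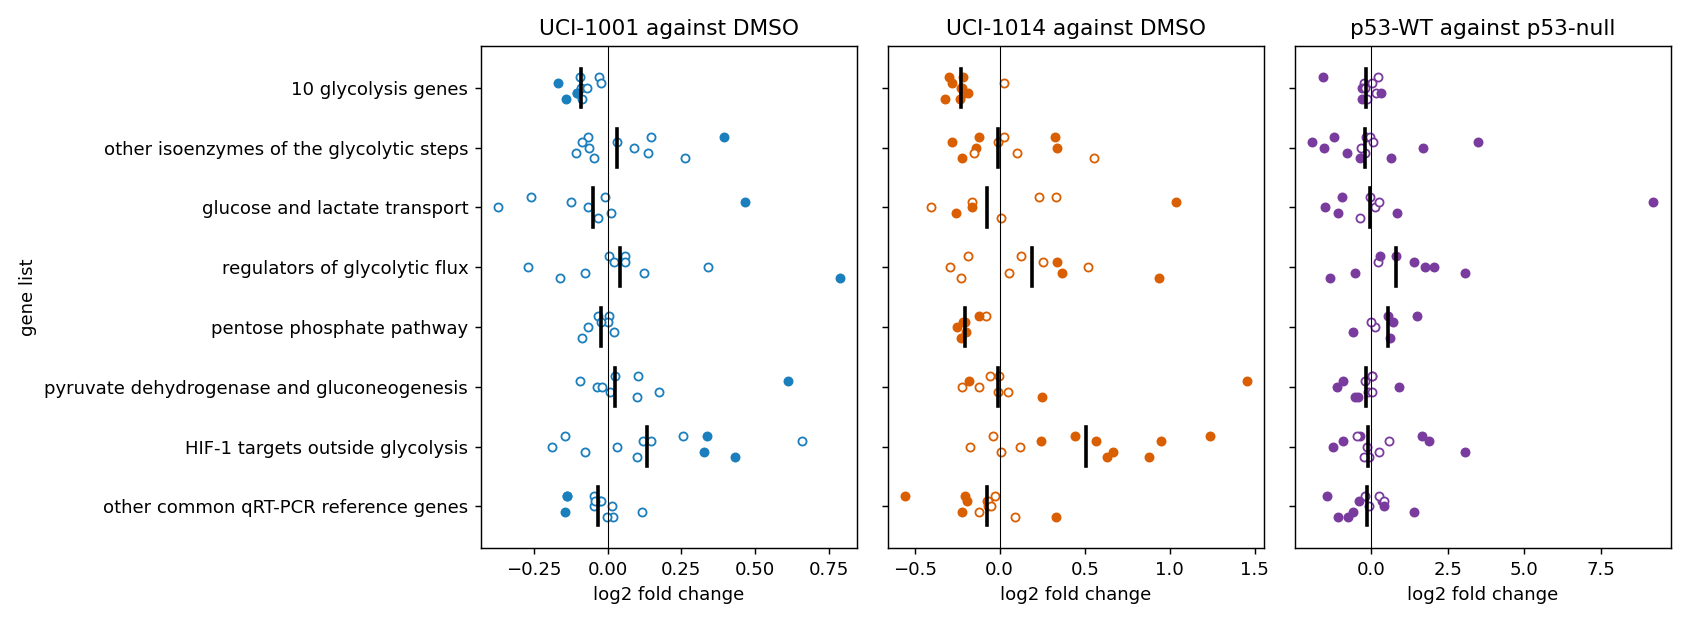
Log2 fold change of every tested gene of the 10 glycolysis genes and 7 related lists in the comparisons with a control, where filled points passed an adjusted p of 0.05 and black bars mark medians. Each panel has its own axis. Under UCI-1014 the glycolysis list except PGK1 and the pentose phosphate list lie below 0 and the HIF-1 targets outside glycolysis lie mostly above it.

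The use of GAPDH as a reference gives its changes a second reading. The shift between the readings is close to GAPDH's own change with its sign reversed, so the genes that follow are not separate evidence. The paper describes qRT-PCR of these genes with UCI-1001, and none with UCI-1014 or p53-WT was found in it. Relative to GAPDH, CDKN1A, the p21 cell cycle inhibitor, showed log2 fold changes of 1.74 (UCI-1001) and 3.76 (UCI-1014), against 1.65 and 3.54 by CPM. PMAIP1, which encodes NOXA, had 1.28 and 2.16 relative to GAPDH and 1.19 and 1.95 by CPM. MDM2, the p53 ubiquitin ligase, had 0.10 and 0.27 relative to GAPDH and 0.00 and 0.05 by CPM. In p53-WT, where GAPDH was higher by CPM, the shift went the other way, with CDKN1A at 6.79 relative to GAPDH and 7.01 by CPM.

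Of 12 other common reference genes, 0 were higher and 3 lower with UCI-1001, 1 was higher and 4 lower with UCI-1014, and 3 were higher and 5 lower with p53-WT. Of all genes 15.8%, 47.1% and 66.5% were called in either direction in these comparisons, so the counts do not set the reference genes apart. PPIA, cyclophilin A, fell by 0.14 with UCI-1001, as did SDHA, a subunit of succinate dehydrogenase (-0.15 on the log2 scale), and TFRC, the transferrin receptor (-0.14). With UCI-1014 PPIA fell by 0.56, more than GAPDH, SDHA fell by 0.22, and TBP, the TATA-binding protein, rose by 0.33. In p53-WT TFRC fell by 1.44, HPRT1, a purine salvage enzyme, fell by 1.09, and SDHA rose by 1.40.

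Likeness to GAPDH was measured as the smaller of the Pearson correlations over the 6 TOV-112D and the 6 Saos-2 label libraries, among 8606 genes ranked, as a description in which groups, depth and scaling are shared. The nearest were SCO2 (0.99 and 0.98), TMEM256 (0.99 and 0.98), CMTM3 (0.99 and 0.97), RPS15 (0.97 and 0.98) and RPL7A (0.96 and 0.98). Of the glycolysis genes PKM ranked 8 and ALDOA 14. TPI1 followed GAPDH in TOV-112D (0.99) but not in the Saos-2 label (0.20), HK2 had 0.80 and -0.82, and PGK1 had -0.42 and 0.75.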

How the data were processed

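RNA-seq libraries were grouped by their labels. The authors quantified reads against GRCh38 with kallisto 0.48.0, summed the estimated counts by gene and deposited whole-number counts, unnormalized, for 40295 rows, which they tested with DESeq2 1.38.3. The annotation release is not given in the sources used here. The deposited transcript files hold estimated counts and TPM for 187626 transcripts, of which 165858 (88.4%, with 95.11% of estimated counts) matched GENCODE v44 by identifier.

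Rows were summed by symbol (11 rows for the 10 genes) and fitted per cell line with edgeR 4.0.16 in R 4.3.3 (filterByExpr, TMM factors, glmQLFit, glmQLFTest), with a call at an adjusted p under 0.05 over all genes tested. CPM is each count over its TMM-adjusted library total, set within a cell line, and is not comparable between lines. Variation between libraries, as edgeR's common BCV, came to 3.59% for TOV-112D against 12.3% for the Saos-2 label, and it may be technical. The smallest counts of a member were of HK2, so its precision was lowest. SE is the log2 fold change over the root of F. Scripts were tested on simulated counts. Tables were handled in Python 3.11.15, and limma 3.58.1 and DESeq2 1.42.0 served as alternatives, with other scalings, filters, row definitions and left-out libraries.

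Members, lists and motifs were chosen with earlier results of these data known. Named genes were the 10 enzymes, up to 3 called genes of at least 10 CPM per list and comparison with the largest change, 6 pathway genes in any case, the qRT-PCR targets and the 5 genes most like GAPDH. Certain genes are not reported here. Reads of near-identical copies may be split: processed pseudogene rows held at most 0.451% of a member's count, a readthrough locus 4.12% of ALDOA and a second GPI row, which was added in, 1.72%.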

Additional observations from a re-analysis of the deposited data

How the results depend on the processing

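Limits: with 2 libraries per TOV-112D group, small changes rest on the low spread of 6 libraries, and depth limited HK2 most. Of the members' log2 fold changes under alternatives, 536 kept direction and side of the threshold, 65 lost a call, 37 gained one and 12 changed sign. The cause was not tested except where fewer libraries entered. Scaling to total counts alone moved the median of all genes to -0.15 for UCI-1014 and -0.16 for p53-WT, and with it the split of calls into higher and lower: 2368 and 5509 for UCI-1014 (3363 and 3312 with TMM), 1548 and 4521 for UCI-1014 against UCI-1001 (2433 and 1976), 4012 and 5587 for p53-WT (4784 and 4704), and 1172 and 1151 for UCI-1001 (1331 and 902). Upper-quartile factors gave 2824 and 4397 for UCI-1014 and 1923 and 3084 between the compounds.

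For UCI-1001 the members called were 5 with total counts, with upper-quartile factors and without a filter, 0 in the fit of all 12 libraries and 0 by limma on log2 TPM, and 0 to 5 with 1 library left out. All genes called were 1139 by DESeq2, 309 in the fit of all 12 libraries, 443 by limma and 952 to 2540 with 1 library left out. For UCI-1014 the fit of all 12 libraries called 3 members and 3418 of 15790 genes, and limma called 4284 of 13096 genes. Between the compounds that fit called 0 members and 937 genes, DESeq2 called 2635 genes and limma 2124, and 3 to 7 members were called with 1 library left out. For p53-WT 1 to 7 members and 8595 to 9768 genes were called with 1 library left out. Without replicate 1 of p53-null and of p53-WT 8 members and 10680 genes were called. The fit of all 12 libraries called 6 members, which added GPI and GAPDH, and 10458 of 15790 genes. By limma the p53-WT calls split into 2900 higher and 5037 lower, and the UCI-1001 calls into 361 and 82.

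PGK1 changed sign to -0.11, -0.042 and -0.038 for UCI-1014 (total counts, upper quartile, all 12 libraries), to -0.069 and -0.0083 between the compounds, to -0.11, -0.0045, -0.14 and -0.057 for p53-WT (total counts, upper quartile, limma, without p53-WT replicate 1, with 0.15 at the other end of the range with 1 library left out) and to 0.0092 for UCI-1001 by limma. ALDOA became -0.052 for p53-WT by limma, and HK2 ranged from -0.091 to 0.025 for UCI-1001 with 1 library left out, positive without UCI-1001 replicate 1.

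Replicate numbers are shared between groups, but same-numbered libraries did not all deviate together: the correlations were 0.23, 0.40 and 0.018 in the Saos-2 label, where not every library correlated best with its own number, and 0.12, -0.024 and -0.27 in TOV-112D. With the replicate number as a block 7 members and 9814 genes were called for p53-WT, with GPI, GAPDH (0.23, adjusted p = 0.0037, against 0.117 without the block and 0.0037 to 0.902 over all alternatives) and ENO1 added, 2 and 1774 for UCI-1001, 9 and 6306 for UCI-1014, and 6 and 3880 between the compounds. With the numbers of the compounds' libraries crossed, a pairing added after the data were seen, 8 members and 4977 genes were called.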
